A study of Rattus norvegicus with 4 samples.

Results

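The genes described here are 10 epithelial chemokine, cytokine and innate sensor genes of the rat: Cxcl1, Cxcl2, Cxcl6, Cxcl10, Cxcl16, Ccl20, Il18, Cd14, Tlr4 and Lcn2. They were selected by symbol from the 13215 genes named on an exon array, and 10 of 10 were measured, each by 1 row of the array. Earlier results of these data, levels included, were known when the genes were chosen. The mark for a level clearly above the array floor, a mean of 4 on the log2 scale, was defined on the means over the same 4 arrays. Above it lay 5 genes (Cxcl16, Ccl20, Il18, Cd14 and Tlr4) and below it lay 5 (Cxcl1, Cxcl2, Cxcl6, Cxcl10 and Lcn2). The gene just inside the mark was Ccl20, with a mean of 5.23, and the gene just outside it was Cxcl10, with a mean of 3.40.

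RNA came from surface colonocytes, the absorptive cells that face the lumen of the distal colon, and was hybridized to 1 Affymetrix exon array per rat. The 2 aldosterone rats received aldosterone as a subcutaneous injection of 50 µg/100 g body weight and from a minipump that gave 10 µg/kg each hour, and after 2 h their inverted colons were shaken for 40 min in 100 nM aldosterone. The 2 vehicle rats received the vehicle, a minipump with polyethylene glycol alone, and vehicle in the shaking solution. All 4 were Wistar rats aged 12 weeks, bilaterally adrenalectomized, and kept for 4 days on 0.9% NaCl as drinking water, so both groups lacked adrenal hormones of their own. Cells were dissociated outside the body before RNA was taken, in both groups, and each array is a separate animal.

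Chemokines are small secreted proteins that steer leukocytes along a gradient. In the gut, epithelial cells make chemokines that draw neutrophils, lymphocytes and dendritic cells when bacterial products reach them. Endotoxin, a lipid of the bacterial wall, is loaded by the binding protein LBP onto CD14, which passes it to TLR4. TLR4 then signals through MyD88, IRAK kinases and TRAF6 to NF-kappa B, a transcription factor that switches on many chemokine genes. Aldosterone acts through the mineralocorticoid receptor, a close relative of the glucocorticoid receptor, whose ligands are known to dampen inflammatory genes.

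Values are log2 expression levels. Group values are means with the SD of 2 rats, and differences are aldosterone minus vehicle. The level of a row depends on its probes, so levels of different genes were not ranked. The array medians ran from 2.22 to 2.44, and the median of all row means was 2.35, near which a row cannot be told from background. A row with a mean of 4 or more was found for 24.8% of the 19403 rows. Sgk1, a kinase gene that corticosteroids are known to induce, lay at 12.54 and 12.52 in aldosterone rats against 10.51 and 10.64 in vehicle rats. Of 5 such control genes, 5 were higher without overlap, where 16.7% of all rows were, 0 had an adjusted p under 0.05 in limma when the prior spread was constant, and 4 (Sgk1, Tsc22d3, Scnn1g and Fkbp5) rose when it followed the level, where 0.0928% of all rows did. Groups of bulk cells were compared, in which fewer cells of a type and less RNA per cell cannot be told apart.

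**Figure D1:**
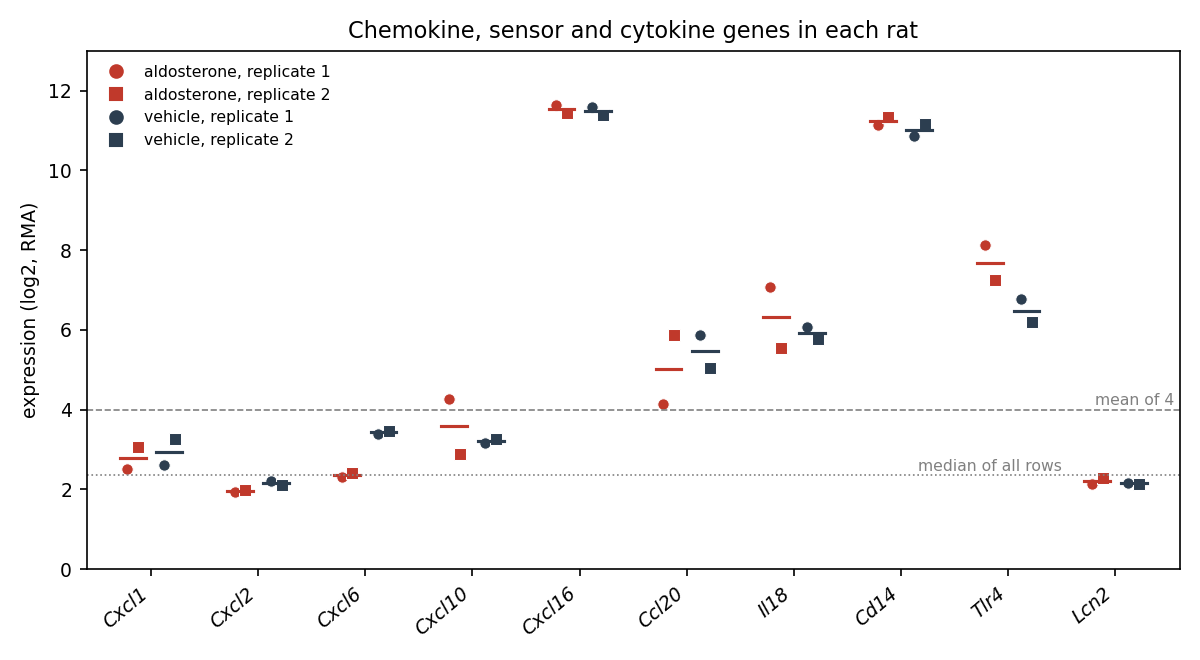
Log2 expression of the 10 genes in each rat, with aldosterone rats in red, vehicle rats in dark blue, circles for replicate 1, squares for replicate 2 and short bars for group means. Tlr4 lay between 7.25 and 8.12 in aldosterone rats, above both vehicle rats, and Cxcl6 lay between 2.31 and 2.41, below both.

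Cxcl1, Cxcl2 and Cxcl6 encode CXC chemokines that attract neutrophils through the receptor CXCR2, and all 3 had means under 4. Their genes stand in 1 cluster on chromosome 14 of the rat GRCr8 assembly, with Cxcl3, Pf4 and Ppbp between Cxcl1 and Cxcl6. The stretches just before their starts are shown because each holds letters of the kappa B type, the sequence class that NF-kappa B binds, and because Ccl20 on chromosome 9 holds one too. Sequences are from RefSeq (GRCr8), read 5′ to 3′ on the strand of the gene, with capitals on each match, on either strand, to GGG, then 2 bases of any kind, then TTTCC.
Cxcl1, chr14:17479381-17479438, minus strand: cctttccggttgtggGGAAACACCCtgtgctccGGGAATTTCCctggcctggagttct
Cxcl2, chr14:17467285-17467344, minus strand: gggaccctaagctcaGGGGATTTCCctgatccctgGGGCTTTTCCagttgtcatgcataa
Cxcl6, chr14:17596481-17596520, minus strand: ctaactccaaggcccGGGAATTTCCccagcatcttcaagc
Ccl20, chr9:91837055-91837094, plus strand: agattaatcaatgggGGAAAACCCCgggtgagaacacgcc

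The match in Cxcl1 nearest the start and the match in Cxcl6 are the same 10 letters. Windows of 250 bases before and 50 bases after the start were searched on both strands, and RefSeq gave one for all 10 genes. This kappa B spelling occurred in 4 of the 10 windows and in 1.53% of 33469 rat promoter windows. The letters TGANTCA, of the AP-1 type, occurred in the windows of Cxcl10 and Il18 and in 7.33% of all windows. A spelling of the corticosteroid response element (AGAACA, 3 bases of any kind, TGT, 1 base of any kind, CT) occurred in 0 of the 10 and in 0.0329% of all windows. With a spelling this rare, a count of 0 in 10 windows tells nothing about these genes. In the windows of the 10 genes, matches to different spellings did not overlap. A match is a description of the letters and not of a bound site.

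Of the 3 neutrophil chemokine genes, Cxcl6 differed most between the groups. Cxcl6 (row 7123912) lay at 2.31 and 2.41 in aldosterone rats and at 3.39 and 3.47 in vehicle rats. Both aldosterone values lay below both vehicle values and close to the median of all rows, so no fold is given. The difference was -1.07 (95% interval -1.36 to -0.79), with an unadjusted p of 0.000449 and an adjusted p of 0.436 in limma, over all rows.
That test took its prior spread as constant over all levels. With a prior spread that followed the expression level, called the intensity trend below, the adjusted p of Cxcl6 was 0.195. Its difference stayed between -1.13 and -1.03 in every alternative that measured it, including those that left out 1 rat. Several of these alternatives leave a difference unchanged. Because the groups do not overlap, leaving out 1 rat could not change its sign.

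Cxcl2 (row 7123883) lay at 1.94 and 1.99 in aldosterone rats and at 2.20 and 2.11 in vehicle rats. The groups did not overlap, but all 4 values stood below the median of all rows, and the interval of the difference ran from -0.47 to 0.09. Cxcl1 (row 7123885) lay at 2.51 and 3.06 in aldosterone rats and at 2.61 and 3.25 in vehicle rats, with overlapping groups. Its difference of -0.14 turned to 0.14 without aldosterone replicate 1 and to 0.18 without vehicle replicate 2. Cxcl1, Cxcl2 and Cxcl3 are close paralogs whose probes may share signal, so these levels are uncertain. Cxcl3, the third gene of that kind, was named after its values were seen and lay at 1.93 and 1.80 in aldosterone rats against 1.86 and 2.01 in vehicle rats.

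Cxcl16, Ccl20 and Cxcl10 encode chemokines that attract lymphocytes and dendritic cells. Cxcl16 is unusual in that it is made as a membrane-bound protein, which serves as a ligand of CXCR6 and as a scavenger receptor. Cxcl16 (row 7079368) lay at 11.63 and 11.43 in aldosterone rats and at 11.60 and 11.40 in vehicle rats. The groups overlapped almost fully, at 11.53 ± 0.143 and 11.50 ± 0.141. The difference was 0.03, with a 95% interval from -0.35 to 0.41 and an adjusted p of 1. It became -0.033 after quantile normalization and -0.027 with arrays centred on their medians. The interval holds changes from -0.35 to 0.41, so it does not show that the groups were alike.

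Ccl20, the ligand of CCR6, varied more between rats of a group than between groups. Ccl20 (row 7356847) lay at 4.14 and 5.88 in aldosterone rats and at 5.88 and 5.04 in vehicle rats. Aldosterone replicate 1 was the lowest of the 4, and aldosterone replicate 2 and vehicle replicate 1 were alike at the top. The difference was -0.45 (interval -2.32 to 1.42), and it turned to 0.42 without aldosterone replicate 1. The gap of 1.74 between the aldosterone rats was matched or exceeded by 1.31% of rows with a mean of 4 or more. Tff3, which encodes a trefoil peptide of goblet cells, was picked for a profile like that of Ccl20, so their likeness follows from that choice. It lay at 9.44 and 11.30 in aldosterone rats and 11.12 and 10.74 in vehicle rats. Agr2, another goblet cell marker, was also lowest in aldosterone replicate 1, at 7.69 and 8.52 against 7.89 and 7.91 in vehicle rats. Zg16, a further goblet cell gene, was instead lowest in the vehicle rats, at 6.39 and 8.06 in aldosterone rats against 5.14 and 4.45. The part of goblet cell content in the Ccl20 values was not tested.

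Cxcl10, an interferon-induced ligand of CXCR3, was above 4 in 1 of the 4 rats. Cxcl10 (row 7116933) lay at 4.26 and 2.90 in aldosterone rats and at 3.17 and 3.28 in vehicle rats. The aldosterone values lay on either side of both vehicle values. Its difference of 0.36 (interval -0.98 to 1.70) turned to -0.32 without aldosterone replicate 1.

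Il18 encodes interleukin 18, a cytokine of the IL-1 family that epithelial cells store as a precursor and that caspase-1 cleaves to its active form. Il18 (row 7336011) lay at 7.08 and 5.54 in aldosterone rats and at 6.06 and 5.77 in vehicle rats. Aldosterone replicate 1 was the highest of the 4 and aldosterone replicate 2 the lowest. The difference was 0.39 (interval -1.13 to 1.92) and turned to -0.38 without aldosterone replicate 1. The gap of 1.54 between the aldosterone rats was reached by 2.20% of rows with a mean of 4 or more.

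Il18 and Cxcl10 shared this order, with aldosterone replicate 1 highest and aldosterone replicate 2 lowest. Il1a, another gene of the IL-1 family, showed it more widely, at 5.999 and 2.182 in aldosterone rats against 3.011 and 2.898 in vehicle rats. Il1a was named after its values were seen. Aldosterone replicate 1 held either the highest or the lowest value in 9 of the 10 genes, where it did so in 41.1% of all rows.

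Cd14 and Tlr4 encode the receptors that sense endotoxin. Cd14 (row 7174592) lay at 11.13 and 11.33 in aldosterone rats and at 10.86 and 11.17 in vehicle rats. The groups overlapped, and the difference was 0.22 (interval -0.22 to 0.66, adjusted p of 1). It was positive in every alternative run, from 0.065 to 0.38.

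Tlr4 had the largest difference of the 5 genes above the mark. Tlr4 (row 7276021) lay at 8.12 and 7.25 in aldosterone rats and at 6.77 and 6.20 in vehicle rats. Both aldosterone values lay above both vehicle values, at 7.68 ± 0.619 and 6.48 ± 0.405. The difference was 1.20 (2.30-fold higher, 95% interval 0.16 to 2.24), with an unadjusted p of 0.0323. It did not pass after adjustment over all rows, at an adjusted p of 1 in limma with the constant prior and 0.563 with the intensity trend.
Leaving out 1 rat moved the difference between 0.76 and 1.64. Without aldosterone replicate 2 it reached an adjusted p of 0.0096 with the intensity trend in limma, where the spread came from the vehicle rats alone. A difference as large as that of Tlr4 in either direction was found in 2.10% of rows with a mean of 4 or more, and one of 1 or more in 3.3%.

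The window around the start of Tlr4 is shown because Tlr4 differed most among the genes above the mark. Capitals mark GAGGAA, letters of the ETS type, which here lie on the opposite strand. They occurred in 6 of the 10 windows and in 27.6% of all windows.
Tlr4, chr5:85160997-85161296, plus strand: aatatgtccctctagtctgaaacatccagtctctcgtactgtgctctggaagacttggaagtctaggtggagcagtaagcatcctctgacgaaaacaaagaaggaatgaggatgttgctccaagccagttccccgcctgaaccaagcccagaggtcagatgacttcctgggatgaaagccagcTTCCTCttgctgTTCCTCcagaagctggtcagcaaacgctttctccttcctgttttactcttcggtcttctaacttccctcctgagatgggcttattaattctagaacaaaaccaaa

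Lcn2 encodes lipocalin 2, which withholds iron from bacteria by binding their siderophores and is a common marker of an inflamed gut. Lcn2 (row 7237648) lay at 2.13 and 2.29 in aldosterone rats and at 2.17 and 2.14 in vehicle rats. All 4 values stood below the median of all rows. The difference of 0.057 was -0.00092 with arrays centred on their medians and -0.027 without aldosterone replicate 2.

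**Figure D2:**
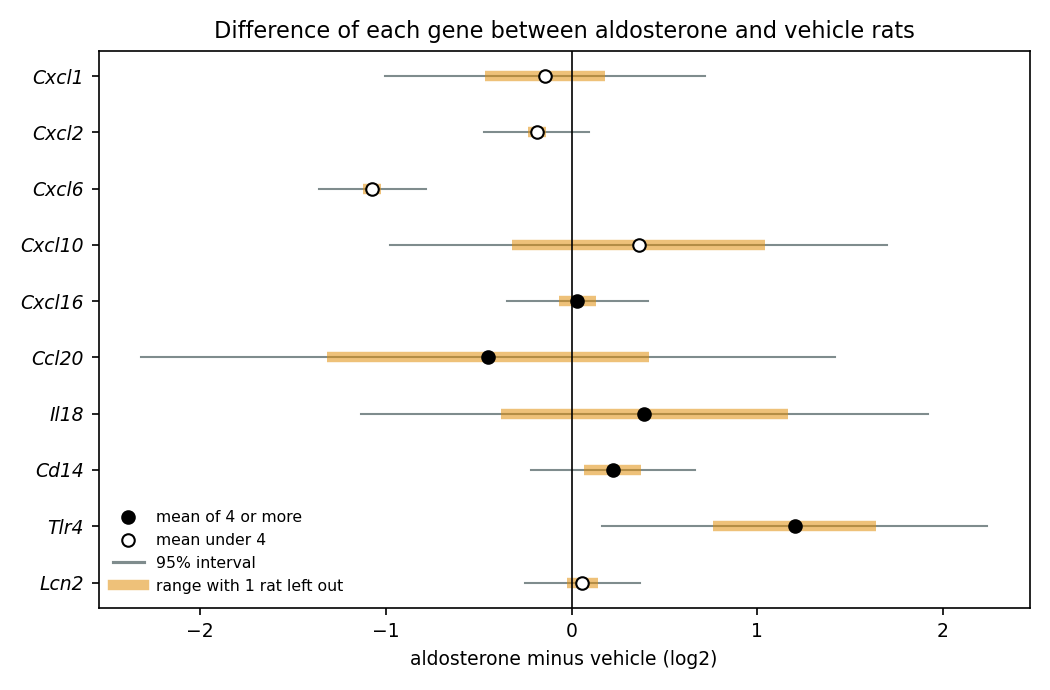
Difference of each gene, aldosterone minus vehicle on the log2 scale, as points with 95% intervals (thin grey lines) and the range with 1 rat left out in turn (thick orange bars). Filled points are genes with a mean of 4 or more. The intervals of Tlr4, at 1.20, and Cxcl6, at -1.07, lay clear of 0, and the orange bars of Ccl20, Il18, Cxcl10, Cxcl1, Cxcl16 and Lcn2 crossed it.

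In limma, 0 of the 10 genes reached an adjusted p under 0.05 under either prior, and the smallest adjusted p among them was 0.436 with the constant prior and 0.195 with the intensity trend. The constant prior called 0 of 19403 rows (0%) and the intensity trend called 21 (0.108%). An unadjusted p under 0.05 was found in both limma fits for 2 of the 10 genes, Cxcl6 and Tlr4. Among all rows the share was 4.53% with the constant prior and 4.67% with the trend. The 10 genes were chosen with earlier results of these data known, so this count is a description. The aldosterone values lay below both vehicle values for 2 genes, Cxcl2 and Cxcl6, and above both for 1, Tlr4. The background shares were 11.1% of all rows below and 16.7% above. Among rows with a mean under 4 they were 8.64% below and 17.7% above, and among rows with a mean of 4 or more 18.7% below and 13.4% above. The groups overlapped for 7 genes. The median difference of the 10 genes was 0.044, beside 0.024 for all rows, and it became -0.016 after quantile normalization and -0.014 with arrays centred on their medians.

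**Figure D3:**
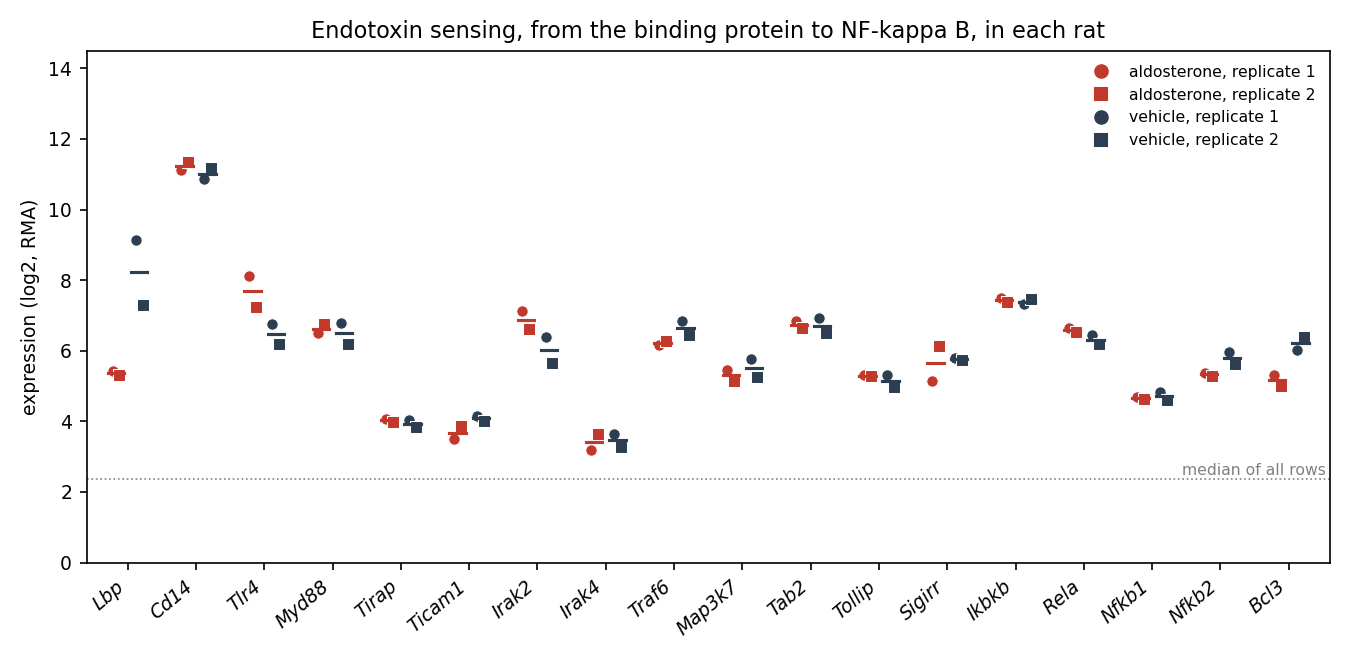
Log2 expression in each rat of genes along the endotoxin pathway, from the binding protein Lbp at the left to NF-kappa B subunit and cofactor genes at the right, marked as in the plot of the 10 genes by rat. Lbp lay at 5.43 and 5.32 in aldosterone rats, below both vehicle rats, while Tlr4 and Irak2 lay above both.

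Around Cd14 and Tlr4, the list of Toll-like and NOD receptors with their adaptors held 19 measured genes of 30, of which 0 passed in either fit. Its median difference was -0.0036, with 3 genes above and 3 below without overlap, where 16.7% of all rows lay above and 11.1% below. The largest difference was that of Lbp, which encodes the protein that carries endotoxin to CD14. Lbp lay at 5.43 and 5.32 in aldosterone rats and at 9.14 and 7.30 in vehicle rats. The vehicle rats differed from each other by more than the aldosterone rats did, and both lay far above them. The difference was -2.85 (7.20-fold lower, interval -4.64 to -1.06), with an adjusted p of 0.853 in limma with the constant prior and 0.0525 with the intensity trend. With all rats kept, the adjusted p of Lbp in limma with the trend was 0.139 when rows under a mean of 4 were left out. It was 0.127 with the replicate number as a block. With 1 rat left out, the trend fit gave differences from -3.77 to -1.93. Each of those fits sets 1 rat against 2 and takes the residual spread from the 2 alone, so its adjusted p is that of a lone rat assumed to vary like the other group. That p was 0.185 without vehicle replicate 1 and 0.0158 without vehicle replicate 2, where the 2 aldosterone rats lay 0.106 apart. It was 3.04e-10 and 2.05e-09 in limma without aldosterone replicates 1 and 2, with the spread from the vehicle rats.

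Below the receptor, Irak2, a kinase gene of the MyD88 complex, lay on the side of Tlr4. Irak2 stood at 7.13 and 6.61 in aldosterone rats and at 6.40 and 5.66 in vehicle rats (difference 0.84, interval -0.07 to 1.74). Traf6, which encodes the ubiquitin ligase that links this complex to NF-kappa B, stood at 6.15 and 6.29 in aldosterone rats and at 6.83 and 6.44 in vehicle rats (difference -0.42). Tollip, an inhibitor of the pathway, overlapped between groups, at 5.29 ± 0.0249 and 5.14 ± 0.246. Myd88, named for its role after its values were seen, overlapped as well, at 6.51 and 6.75 in aldosterone rats and 6.80 and 6.19 in vehicle rats. The other Toll-like receptor genes measured, Tlr2, Tlr3, Tlr5 and Tlr6, had means from 2.09 to 3.74, all under 4.

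The NF-kappa B list, which holds subunits, inhibitors and targets, had 14 measured genes of 23, of which 0 passed in either fit. Its median difference was -0.034, with 3 genes above and 2 below without overlap, where 16.7% of all rows lay above and 11.1% below. Bcl3, an atypical inhibitor that works as a nuclear cofactor, lay at 5.16 ± 0.230 in aldosterone rats and at 6.21 ± 0.270 in vehicle rats, without overlap. That difference was -1.05 (interval -1.59 to -0.50, adjusted p of 0.778 in limma). Nfkb2, a subunit gene, stood at 5.37 and 5.29 in aldosterone rats and at 5.96 and 5.62 in vehicle rats (difference -0.45). Rela, the main activating subunit gene, stood at 6.58 ± 0.0716 in aldosterone rats and 6.32 ± 0.197 in vehicle rats, and the inhibitor gene Nfkbib at 6.34 ± 0.0172 and 6.13 ± 0.0458. The cytokine genes Tnf and Il6 had means of 2.40 and 1.65, near or below the median of all rows.

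Genes that process or accompany Il18 were held in a list of the inflammasome and IL-1 family, with 18 measured of 19 and 0 past the threshold in either fit. Its median difference was -0.028, with 4 genes above and 4 below without overlap, where 16.7% of all rows lay above and 11.1% below. Nlrp6, a sensor gene of the gut epithelium tied to Il18 maturation in mice, lay at 8.08 ± 0.111 in aldosterone rats and at 6.87 ± 0.271 in vehicle rats. Both aldosterone values were higher, by 1.21 (2.32-fold, interval 0.74 to 1.69), with an adjusted p of 0.681 in limma with the constant prior and 0.362 with the trend. Casp1, which encodes the protease that cleaves the precursor, lay on the other side, at 5.25 and 5.39 in aldosterone rats and 5.92 and 5.83 in vehicle rats (difference -0.56, interval -0.87 to -0.25).

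Nlrc4, another inflammasome sensor gene, stood at 6.34 ± 0.164 in aldosterone rats and 5.99 ± 0.129 in vehicle rats. Il1rn, which encodes the natural antagonist of the IL-1 receptor, stood at 3.43 and 3.40 in aldosterone rats and at 5.16 and 4.55 in vehicle rats. The difference of Il1rn was -1.44 (interval -2.08 to -0.80, adjusted p of 0.711 in limma). Il18bp, which encodes the soluble inhibitor of interleukin 18 and was named for that role, overlapped between groups, at 5.33 and 6.02 in aldosterone rats and 5.83 and 6.39 in vehicle rats.

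**Figure D4:**
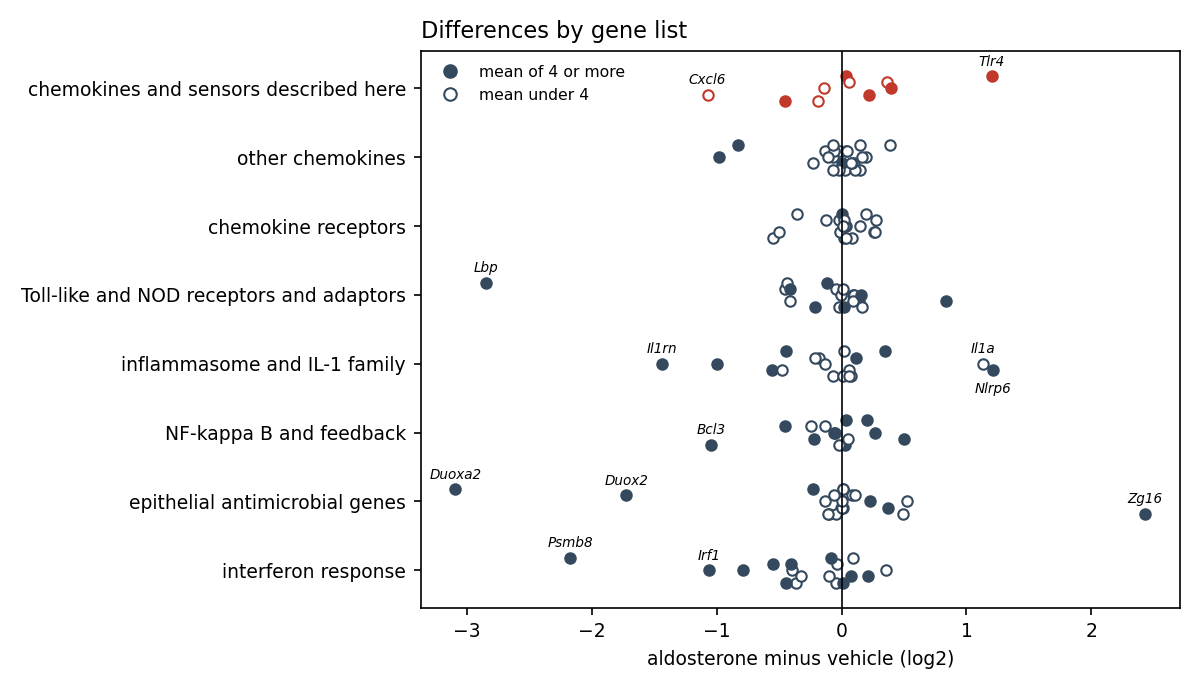
Difference of each measured gene, aldosterone minus vehicle on the log2 scale, for the 10 genes described (red) and for 7 related lists (dark blue), with filled points for a mean of 4 or more and open points for a mean under 4; genes at 1 or more on either side are named. Duoxa2, at -3.09, Lbp, at -2.85, and Zg16, at 2.43, lay farthest from 0.

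Among 24 other chemokine genes measured of 30 listed, 21 had means under 4. None passed in either fit, and the median difference was 0.014. Without overlap, 2 genes lay above and 3 below, where 16.7% of all rows lay above and 11.1% below. The 3 above the mark were Cx3cl1, Ccl28 and Ccl6. Cx3cl1 encodes fractalkine, which like CXCL16 is anchored in the membrane, and it lay at 9.45 and 9.30 in aldosterone rats and at 10.55 and 9.87 in vehicle rats. Its difference was -0.83 (1.78-fold lower, interval -1.54 to -0.12, adjusted p of 1 in limma). Ccl28, a mucosal chemokine that attracts antibody-secreting cells, lay at 4.38 and 3.91 in aldosterone rats and at 5.46 and 4.80 in vehicle rats, a difference of -0.99 (interval -1.81 to -0.16, adjusted p of 0.993). Ccl6 overlapped, at 8.14 ± 0.881 and 8.14 ± 0.237, and its difference changed sign with the scaling.

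Receptors of these chemokines stood near the floor, with 18 of 19 measured receptor genes under a mean of 4, 0 past the threshold and a median difference of 0.022. Cxcr2, Cxcr3, Cxcr6 and Ccr6, the receptor genes for the chemokines above, were named for that role and had means of 2.02, 2.56, 1.94 and 2.94. The 1 receptor gene above the mark was Ccr10, a receptor of Ccl28 known from lymphocytes, at 4.01 ± 0.261 in aldosterone rats and 4.01 ± 0.488 in vehicle rats. A list of proteases that shed or process proteins held 5 measured genes of 6. Among them, Adam17 lay at 6.18 ± 0.127 in aldosterone rats and 6.48 ± 0.294 in vehicle rats. Dpp4, which trims chemokines such as CXCL10, lay at 5.08 and 4.36 in aldosterone rats and at 3.77 and 4.09 in vehicle rats (difference 0.79, interval -0.01 to 1.59). Furin stood at 8.29 ± 0.0163 and 8.27 ± 0.0712, and 0 of the 5 measured genes of that list passed.

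Beside Lcn2, 21 other epithelial antimicrobial genes of 24 were measured. With the constant prior 0 passed, and with the intensity trend 1 fell and 20 did not pass, against 0.0155% of all rows that fell and 0.0928% that rose. The gene that fell was Duoxa2, the maturation factor of the oxidase DUOX2, at 5.84 and 4.04 in aldosterone rats and 7.73 and 8.34 in vehicle rats (adjusted p of 0.0362 with the trend in limma, 0.813 with the constant prior). With all rats kept, its adjusted p in limma with the trend was 0.121 when rows under a mean of 4 were left out. It was 0.172 with the replicate number as a block, so Duoxa2 did not pass in either. Without vehicle replicate 1 or 2 its adjusted p with the trend was 0.154 or 0.451, with the residual spread from the aldosterone rats alone. Duox2 lay at 7.99 and 6.44 in aldosterone rats and at 8.91 and 8.97 in vehicle rats. Zg16, a lectin gene of goblet cells, lay at 6.39 and 8.06 in aldosterone rats and at 5.14 and 4.45 in vehicle rats. Il22ra1, which encodes the receptor of the epithelial defence cytokine IL-22, lay at 8.01 ± 0.182 in aldosterone rats and 7.79 ± 0.0686 in vehicle rats. The median difference of the list was 0.0071.

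Cxcl10 is a known target of interferons, and 18 interferon response genes of 22 were measured. Psmb8, an immunoproteasome gene, fell with the intensity trend (adjusted p of 0.0362 in limma, 0.632 with the constant prior) and 17 genes did not pass, where 0.0155% of all rows fell. Without vehicle replicate 1 or 2 its adjusted p with the trend was 0.197 or 0.294, with the residual spread from the aldosterone rats alone. Psmb8 lay at 4.03 and 4.83 in aldosterone rats and at 6.65 and 6.55 in vehicle rats. Irf1, a transcription factor gene of this response, lay at 6.06 and 5.93 in aldosterone rats and at 7.41 and 6.70 in vehicle rats. Oasl lay at 6.79 and 6.42 in aldosterone rats and at 7.22 and 7.09 in vehicle rats, and Tap1, a peptide transporter gene, at 4.99 and 5.30 in aldosterone rats and at 6.44 and 5.43 in vehicle rats. The median difference of the list was -0.22, with 2 genes above and 5 below without overlap, where 16.7% of all rows lay above and 11.1% below. Among the 10 genes of the list with a mean of 4 or more, 1 lay above and 4 below, where 13.4% of such rows lay above and 18.7% below.

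Several of the 10 genes are also known from macrophages and neutrophils, so markers of other cells were read in the same arrays. Macrophage and monocyte markers had means under 4 in 9 of 10 measured genes, with list medians of 2.15 and 2.27 in aldosterone rats and 2.05 and 2.25 in vehicle rats. The exception, Mrc1, stood at 4.01 and 3.53 in aldosterone rats and at 4.55 and 4.73 in vehicle rats. Of the 10 macrophage markers, 8 had a positive and 2 a negative difference, with 2 (Cd68 and Adgre1) above and 1 (Mrc1) below without overlap, beside 16.7% of all rows above and 11.1% below. Their median difference was 0.035, and their part in the values of Tlr4 and Cd14 was not tested. Neutrophil markers (6 of 6 measured genes), T cell markers (6 of 6), B and plasma cell markers (3 of 3), fibroblast and muscle markers (7 of 7), endothelial markers (2 of 2), enteroendocrine markers (5 of 5) and crypt and cycling markers (5 of 5) had means under 4. Of goblet cell markers 2 were measured, Tff3 and Agr2, and both had means of 4 or more. Surface colonocyte markers had list medians of 11.17 and 11.20 in aldosterone rats and 11.09 and 11.06 in vehicle rats, and 11 of 12 had means of 4 or more.
Of these colonocyte markers, 6 lay above and 1 below without overlap, where 16.7% of all rows lay above and 11.1% below. The median difference of these markers was 0.13. Among those with a mean of 4 or more, 5 of 11 lay above and 1 below, where 13.4% of such rows lay above and 18.7% below. Slc26a3, a chloride exchanger gene of surface cells, stood at 12.75 and 12.61 in aldosterone rats and at 11.96 and 12.30 in vehicle rats. Aqp8 (9.83 and 9.93 against 9.80 and 9.38) and Cdhr5 (10.60 and 10.37 against 10.29 and 10.33) were also higher without overlap. Slc9a3 overlapped and varied widely between rats, at 8.39 and 3.44 in aldosterone rats and 2.48 and 3.99 in vehicle rats. The part of these markers in the Tlr4 difference was not tested.

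For each of the 5 genes above the mark, the genes with the most similar profile over the 4 arrays were sought among 4127 named genes with a mean of 4 or more. The measure was the root mean square difference between profiles centred on their own means, in log2 units, which is a description of 4 values and carries no test. Tlr4 was nearest to Pde9a, a cyclic GMP phosphodiesterase gene (0.13), and Gba2, a glucosylceramidase gene (0.14). Pde9a lay at 9.97 and 9.18 in aldosterone rats and at 8.54 and 8.32 in vehicle rats. Il18 was nearest to Tut4 (0.075) and Yod1 (0.11), and Ccl20 to Ptprn2 (0.16) and Tff3 (0.18). The flat profiles of Cxcl16 and Cd14 were matched more closely, by Chmp5 (0.012) and Bicral (0.016) for Cxcl16 and by Erhl1 (0.017) and Dgcr2 (0.018) for Cd14.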

How the data were processed

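Log2 expression values, 1 per row and array, were used as deposited by the authors. The submitters' processing notes name RMA, Affymetrix Expression Console and Partek, without version or role. That the scale is log2 was read from the range, 1.36 to 13.7. The genome build of the array design is not given in the sources used here. Rows were named through the platform annotation, with Entrez IDs checked against RefSeq (GRCr8). Of 19403 rows, 13327 had 1 symbol, 620 several and 5456 none here. A gene with several rows was read at the row with the highest mean.

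Aldosterone was compared with vehicle over all rows by the lmFit and eBayes steps of limma 3.58.1, run under R 4.3.3 (prior variance constant, two-sided tests, treatment as the only term). The Benjamini-Hochberg adjustment ran over all rows, with a threshold of 0.05. Intervals are 95% intervals of that fit. The number of arrays limits the precision. The labels call the arrays of a group biological replicates. The fits were tested on simulated data. Python 3.11.15, pandas 2.3.3 and matplotlib 3.10.9 made tables and plots.

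The 10 genes and the lists were chosen with earlier results of these data known, so list counts and medians are descriptions. Named are the 10 genes, up to 4 genes per list with the smallest unadjusted p among those with a mean of 4 or more, corticosteroid-induced control genes, and 2 genes of most similar profile for each of the 10 with a mean of 4 or more. Genes named beyond that rule are marked as named for a role or after their values were seen, and include the other Toll-like receptors, the chemokine receptors, Tnf and Il6.

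The alternatives were the intensity trend, a robust prior, no moderation, quantile normalization, arrays centred on the median, dropping rows under the 25th percentile or under a mean of 4, the replicate number as a block, averaging several rows per gene, and leaving out each array. The trend with rows under 4 left out or with each array left out, and all alternatives for the lists, were added after seeing the data.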

Additional observations from a re-analysis of the deposited data

How the results depend on the processing

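With 2 rats a group, 0 rows passed with the constant prior, at 879 rows with an unadjusted p under 0.05. The count of rows past the threshold was 21 with the intensity trend, 12 with rows under a mean of 4 left out, with or without the trend, and 6 with the replicate block and the trend together. With 1 rat left out it was 0 with the constant prior. With the trend it was 137 and 142 without aldosterone replicates 1 and 2, and 7 and 8 without vehicle replicates 1 and 2, where each fit took the residual spread from the group with both rats and assumed that the lone rat varied like them. For the genes of the related lists, corticosteroid-induced controls included, the count was 0 with the constant prior, 6 with the trend, 4 in each of those other settings and 0 to 12 with 1 rat left out. Of the 10 genes, 0 to 1 passed with 1 rat left out, the 1 being Tlr4, and 0 passed in every other setting. The count of these genes lower without overlap, 2 with all rats, was 0 once rows under a mean of 4 were left out. It was 3 to 5 with 1 rat left out in the fits run. With 1 rat against 2, fewer values have to separate, so groups fail to overlap more easily. The share of all rows lower without overlap is not given for 1 rat against 2. The counts of 3 to 5 therefore do not show a wider fall than the 2 with all rats.

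The labels do not say that equal replicate numbers share anything. Deviations of same-numbered rats correlated at 0.148 over all rows and 0.0934 over those with means from 4 upward. With the replicate block alone 0 rows and 0 of the 10 genes passed.

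Some small differences changed sign. Under quantile normalization Cxcl16 was at -0.03329, Ccl6 at -0.003254 and Ccr10 at -0.0001113. With arrays centred on their medians Cxcl16 was at -0.02652, Lcn2 at -0.00092, Ccl6 at -0.05643, Ccr10 at -0.05147 and Furin at -0.03562. With 1 rat left out, the range was -1.32 to 0.42 for Ccl20, -0.38 to 1.16 for Il18, -0.32 to 1.04 for Cxcl10, -0.47 to 0.18 for Cxcl1, -0.070 to 0.13 for Cxcl16, -0.027 to 0.14 for Lcn2, -0.62 to 0.62 for Ccl6, -0.34 to 0.35 for Ccr10, -0.028 to 0.072 for Furin and -0.021 to 0.33 for Tollip. Without vehicle replicate 2 Ccl6 was at -0.1661 and Cxcl16 at -0.06825, and without aldosterone replicate 2 Ccr10 was at -0.1779. The cause was not tested. Tlr4, Cd14, Cxcl2 and Cxcl6 kept their direction in every setting that measured them. The choice of prior, the row filters and the replicate block leave a difference unchanged. For Tlr4, Cxcl2 and Cxcl6, whose groups do not overlap, leaving out 1 rat cannot change the sign either. Their kept direction is therefore no separate support. Genes near the median of all rows have little signal over background, which limits what can be seen of Cxcl1, Cxcl2, Cxcl6 and Lcn2.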
